A study of Sus scrofa with 8 samples.

Results

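Endoplasmic reticulum (ER) stress genes were examined in porcine liver before and after the development of steatosis. The 10 genes were chosen by symbol to stand for the PERK, IRE1 and ATF6 branches of the unfolded protein response: HSPA5, HSP90B1, PDIA4, DNAJB9, HERPUD1, XBP1, ATF4, DDIT3, ATF3 and TRIB3. All 10 were found among the 18103 genes of the expression table, and all 10 passed the filter on low values that left 13175 genes for testing. Hepatic RNA of male Landrace x Large White pigs was sequenced in 8 pools, each made of 2 animals. A set of 4 pools, labelled Control, came from the initial state at 4 months of age, when the pigs ate the control diet and the liver was sampled by biopsy during laparotomy. The other 4 pools, labelled Steatosis, came from the same animals at 6 months of age, after 2 months on a steatotic diet rich in saturated fat, fructose, cholesterol and cholate and deficient in methionine and choline, with the liver taken after euthanasia. Both samplings followed an overnight fast and used propofol anaesthesia. Diet, age and way of sampling change together between the groups and cannot be told apart, and none of the libraries used here comes from pigs kept on the control diet to 6 months.

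The ER folds secreted and membrane proteins, a heavy load for hepatocytes, which secrete most plasma proteins. When unfolded proteins accumulate, 3 sensors in the ER membrane respond: IRE1 (gene ERN1) splices the XBP1 transcript into the form that encodes an active transcription factor, ATF6 is cleaved into a transcription factor, and PERK (gene EIF2AK3) phosphorylates the initiation factor eIF2alpha, which slows protein synthesis in general but favours translation of ATF4. Their targets comprise chaperones that help folding, factors that carry unfolded proteins out for degradation (ERAD) and, downstream of ATF4, genes of amino acid supply and of cell death. ER stress of hepatocytes is widely discussed in fatty liver disease, and lack of methionine is an established signal to ATF4 by way of the kinase GCN2.

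Expression is given as FPKM, fragments scaled to the length of the transcript and to the number mapped in a library, so that levels can be set side by side between genes. From the steps between the lowest values of short genes, the depth was estimated at about 18600000 to 20500000 fragments per pool, and each pool held at least 90.7% of the fragments of the deepest. FPKM values were used as deposited, and fold changes refer to log2(FPKM + 0.1). A gene is said to have risen or fallen when its adjusted p was under 0.05 by limma with Benjamini-Hochberg adjustment over all tested genes. Hepatocyte markers were abundant in every pool, with 62943.8 to 95456 FPKM summed over 10 genes in the initial state and 55792 to 66781.7 in steatosis. Pool 1 of the initial state stood apart, since 8 skeletal muscle genes summed to 3074 FPKM there and to at most 23.6 in the other pools of that state, and 7 stomach mucosa genes summed to 1525 against at most 28.6. In steatosis these sums lay between 0.37 and 1.33 FPKM for muscle and between 6.08 and 6.64 for stomach. The results are therefore also given without that pool where this changes a call.

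None of the 10 genes rose or fell between the initial state and steatosis. Among all tested genes 29% were called, 26.7% higher and 2.28% lower. Adjusted p for the 10 genes ranged from 0.0701 to 0.92 (limma), and the values of the groups overlapped for each of them, whereas 32.1% of all tested genes had no overlap. With an unadjusted p under 0.05 there were 2 genes, HSP90B1 and DNAJB9, both lower in steatosis, against 41.9% of all tested genes in either direction and 4.13% in that one. By the exact permutation test of mean FPKM, p was under 0.05 for 0 of the 10, and for 32.1% of all tested genes (2.53% lower in steatosis). With the study's limits, a log2 fold change of more than 1 in size together with an adjusted p below 0.01, the count was 0 as well, against 6.01% of all genes higher and 0.334% lower. The estimates were below 0 for 7 genes and above 0 for 3, with a median log2 fold change of -0.25. Over all tested genes this median was 0.25, with 21.3% of the genes below 0, and the estimate of every one of the 10 lay below it. The distance from that median was only -0.006 for ATF3 (standard error 0.72) and -0.058 for ATF4 (standard error 0.19).

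**Figure D1:**
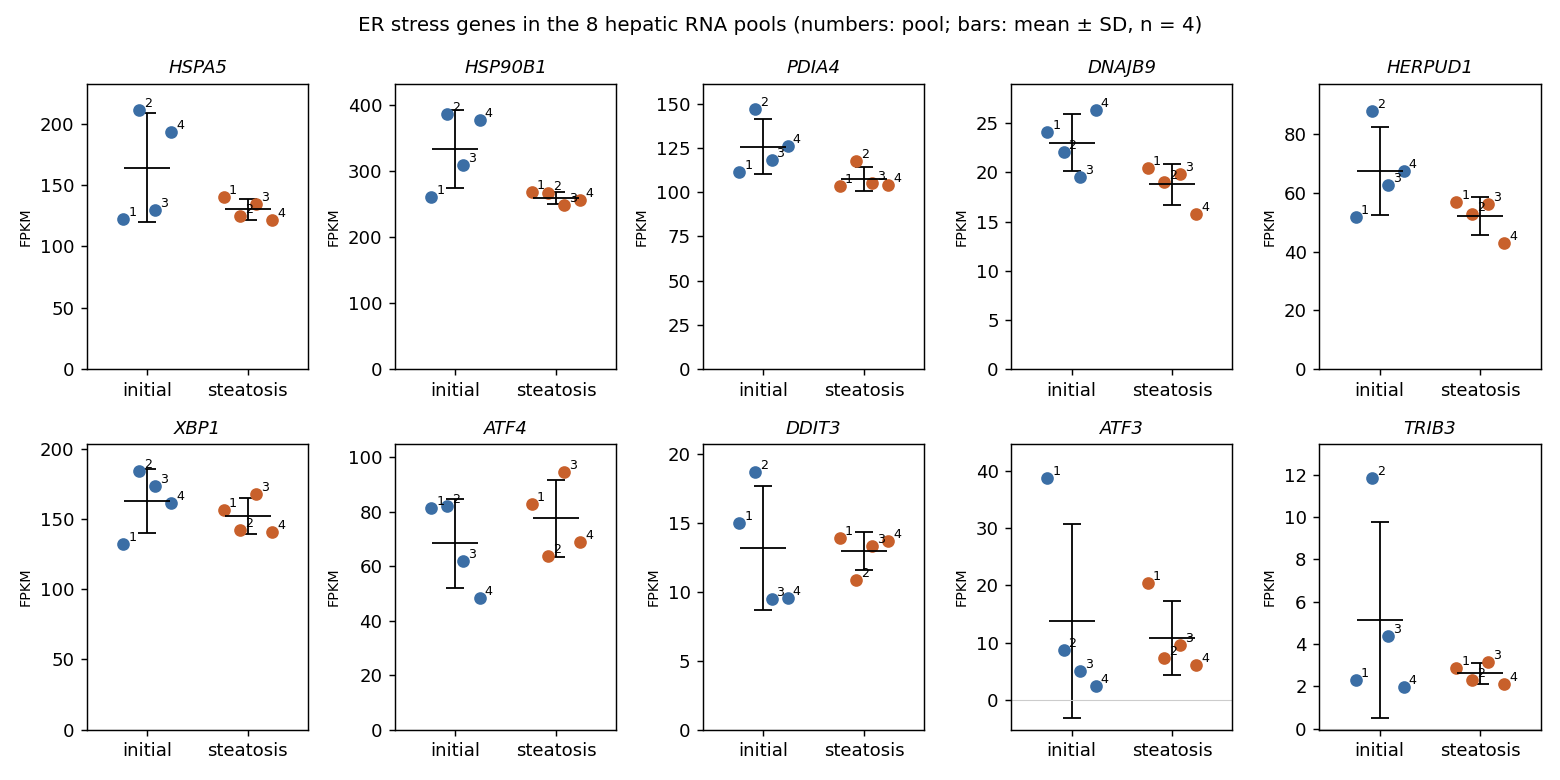
FPKM (vertical axes, from 0, drawn lower where an error bar reaches below it) of the 10 ER stress genes in 4 pools of the initial state (blue) and 4 of steatosis (orange), numbered by pool, with the mean and SD. The groups overlap in every panel, and the 4 steatosis pools lie closer together than the 4 initial pools.

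The chaperones of the ER lumen ranged widely in level, and none of them passed the test. HSPA5 (BiP, chr1:265930044-265934959, Sscrofa11.1), the Hsp70 chaperone that also holds the 3 sensors inactive, measured 122.67, 210.98, 130.04 and 193.38 FPKM in pools 1 to 4 of the initial state and 140.14, 124.86, 134.33 and 121.16 in those of steatosis. Initial pools 2 and 4 were thus above the rest, while initial pools 1 and 3 lay among the steatosis pools. The means were 164.3 ± 44.5 (SD, n = 4) and 130.1 ± 8.68 FPKM, and the fold of 0.813 had a 95% interval of 0.622 to 1.06 with an adjusted p of 0.22 by limma. HSP90B1 (GRP94, chr5:80511513-80531016), the Hsp90 chaperone of the ER, measured 260.33, 386.76, 310.07 and 378.10 FPKM initially and 267.93, 267.02, 248.55 and 256.19 in steatosis. Only initial pool 1 lay in the narrow range of the steatosis pools, and the other initial pools were above it. Its means were 333.8 ± 59.8 and 259.9 ± 9.27 FPKM (SD, n = 4), a fold of 0.788 (95% interval 0.646 to 0.962), with the lowest adjusted p of the 10 genes, 0.0701 by limma.

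PDIA4 (ERp72, chr9:109260850-109280256), a protein disulfide isomerase, measured 111.25, 147.17, 118.01 and 126.16 FPKM initially and 103.29, 117.65, 105.46 and 104.00 in steatosis. Steatosis pool 2 alone reached into the initial range. It was the only one of the 10 genes that was lower in steatosis in 4 of 4 pools of the same number, and its fold of 0.86 had a 95% interval of 0.733 to 1.01 (adjusted p = 0.138, limma). DNAJB9 (ERdj4, chr18:36578928-36584211), a cochaperone of BiP and an XBP1 target, measured 24.07, 22.05, 19.56 and 26.35 FPKM initially and 20.49, 19.03, 19.83 and 15.76 in steatosis. The groups overlapped through initial pool 3 and steatosis pools 1 and 3, the fold was 0.818 (95% interval 0.677 to 0.988) and the adjusted p 0.1. HERPUD1 (chr6:18901171-18913427), a membrane component of the ERAD machinery, measured 51.93, 87.89, 62.88 and 67.49 FPKM initially and 56.83, 52.70, 56.37 and 43.08 in steatosis. Initial pool 2 was highest and initial pool 1 was below 3 of the steatosis pools. The fold was 0.783 (95% interval 0.613 to 1.001) and the adjusted p 0.121.

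Transcription factors of the response gave no common direction. XBP1 (chr14:46011239-46016526), the factor activated by IRE1, measured 131.90, 183.99, 173.87 and 161.74 FPKM initially and 156.79, 142.21, 167.66 and 140.86 in steatosis. The pools of both groups were interleaved, and the fold of 0.937 had a 95% interval of 0.782 to 1.12 (adjusted p = 0.574). The value is for the gene, so spliced and unspliced XBP1 were not told apart. ATF4 (chr5:8742964-8745752), the factor downstream of PERK and GCN2, measured 81.38, 82.15, 61.96 and 48.41 FPKM initially and 82.90, 63.55, 94.62 and 68.91 in steatosis. Its fold was 1.14 (95% interval 0.855 to 1.53, adjusted p = 0.46), with values of 2 steatosis pools above all initial pools and 2 within their range. Since ATF4 is controlled largely through its translation, its transcript level does not give its activity.

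DDIT3 (CHOP, chr5:22785441-22789867), a proapoptotic target of ATF4, measured 14.96, 18.66, 9.47 and 9.52 FPKM initially and 13.90, 10.89, 13.35 and 13.68 in steatosis. The steatosis values all lay within the initial range, and the fold of 1.02 had a 95% interval of 0.734 to 1.43 (adjusted p = 0.92). ATF3 (chr9:130772259-130829678), a factor induced by many stresses and as an immediate early gene, measured 38.81, 8.77, 5.06 and 2.50 FPKM initially and 20.33, 7.29, 9.59 and 6.16 in steatosis. Pool 1 was the highest in both groups, and the initial pools differed by 15.5-fold, which left an interval of 0.391 to 3.60 around the fold of 1.19 (95%, adjusted p = 0.817). TRIB3 (chr17:34808273-34819592), a pseudokinase induced by ATF4 and CHOP that acts on insulin signalling, measured 2.30, 11.86, 4.39 and 1.99 FPKM initially and 2.87, 2.29, 3.17 and 2.13 in steatosis. Its initial mean of 5.14 ± 4.61 FPKM (SD, n = 4) rested on pool 2, and the fold of 0.662 had a 95% interval of 0.32 to 1.37 (adjusted p = 0.365).

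In the order of mean level over the 8 pools, HSP90B1 (296.9 FPKM) came first, followed by XBP1 (157.4), HSPA5 (147.2), PDIA4 (116.6), ATF4 (73.0), HERPUD1 (59.9), DNAJB9 (20.9), DDIT3 (13.1), ATF3 (12.3) and TRIB3 (3.88). These levels ranged from the 98.0 percentile of the tested genes for HSP90B1 to the 42.1 percentile for TRIB3. The ranges of neighbours did not overlap between HSP90B1 and XBP1, between PDIA4 and ATF4 and between HERPUD1 and DNAJB9. XBP1 exceeded HSPA5 in 6 of 8 pools, ATF4 exceeded HERPUD1 in 5 and DDIT3 exceeded ATF3 in 6, so these neighbours were not set apart. At the estimated depth TRIB3 was covered by about 126 to 695 fragments per pool and HSP90B1 by about 13157 to 21245.

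The initial state was the more variable one for the whole set. The SD of log2(FPKM + 0.1) between pools was larger there than in steatosis for 10 of 10 genes, which was also so for 73.6% of all tested genes. Its median over the 10 genes was 0.34 in the initial state and 0.17 in steatosis, against 0.25 and 0.16 over all tested genes. Initial pool 2 held the highest of the 8 values for 7 genes (HSPA5, HSP90B1, PDIA4, HERPUD1, XBP1, DDIT3 and TRIB3). DNAJB9 was highest in initial pool 4, ATF3 in initial pool 1 and ATF4 in steatosis pool 3. HSPA5 and HSP90B1 were high in initial pools 2 and 4 and lower in 1 and 3, whereas ATF4, DDIT3 and ATF3 were each higher in initial pools 1 and 2 than in 3 and 4. TRIB3, another ATF4 target, was highest in initial pool 2 and low in pool 1, and DDIT3 also had its highest value in pool 2.

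**Figure D2:**
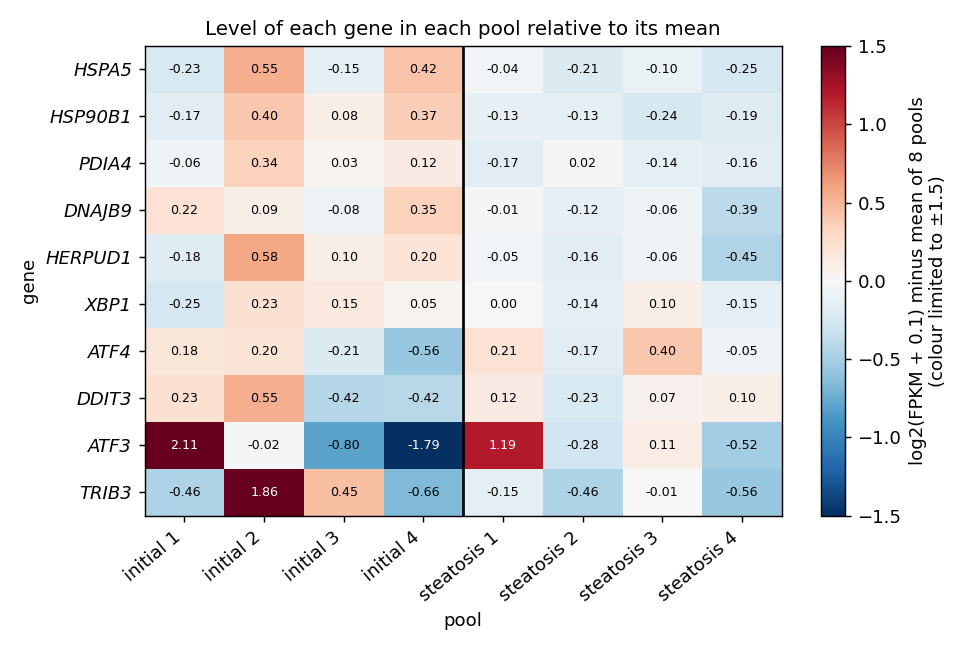
Difference of each gene's log2(FPKM + 0.1) from its mean over the 8 pools (colour and number), for the 10 genes (rows) in 4 initial and 4 steatosis pools (columns, divided by the line). Initial pool 2 is the highest for 7 genes, and ATF3 and TRIB3 spread over more than 1 log2 unit among the initial pools.

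As a description of how pools deviated from their group means, the gene with the pattern most like that of HSPA5 was DNAJB11, another BiP cochaperone, with a Pearson r of 0.985 over the 8 pools among 11095 genes of at least 1 FPKM. Next came NDUFB8 and ATP5I, subunits of respiratory complexes, CCT4, a subunit of the cytosolic chaperonin, and FAM98B (r from 0.974 to 0.982). HSP90B1 ranked at place 36 in this order (r = 0.91), HERPUD1 at 191 (r = 0.84) and PDIA4 at 502 (r = 0.74). Further down were XBP1 at 1025 (r = 0.62), TRIB3 at 1930 (r = 0.47), the BiP cochaperone DNAJB9 at 2525 (r = 0.38) and DDIT3 at 3399 (r = 0.26). ATF4 (r = -0.05) and ATF3 (r = -0.39) had no such likeness. Other ER chaperones and oxidoreductases ranged from DNAJB11 at the top to SIL1 (r = -0.55). All these values come from the same 8 libraries, so a feature of a library enters both genes of a pair.

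The calls depended on the scale on which the pools were compared. Since the median gene was 0.25 log2 units higher in steatosis, each pool was also divided by the median ratio of its genes to the mean pool, which brought the median of all genes to -0.01. On this scale 21.5% of 13101 genes were called, 11.6% higher and 9.85% lower, so that the share of higher genes among those called dropped from 92.1% to 54.1%. HSP90B1, PDIA4, HERPUD1 and DNAJB9 then fell, with folds of 0.652 (95% interval 0.519 to 0.82), 0.712 (0.604 to 0.839), 0.648 (0.508 to 0.828) and 0.677 (0.534 to 0.86) and adjusted p of 0.0176, 0.0114, 0.0215 and 0.0295 by limma. HSPA5 and XBP1 came close with folds of 0.673 (adjusted p = 0.0604) and 0.776 (adjusted p = 0.0598). By the exact permutation test on this scale, HSPA5, HSP90B1, PDIA4, HERPUD1 and DNAJB9 each reached 0.0286, the smallest p that 4 pools against 4 allow, all lower in steatosis. Of all 13101 genes 26.7% passed this test on that scale, and 13.3% passed it as lower in steatosis. None of the 10 genes rose, and their median log2 fold change was -0.53. ATF4, DDIT3 and ATF3, which were above 0 as deposited, turned to -0.08, -0.24 and -0.02, all with adjusted p of at least 0.414.

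**Figure D3:**
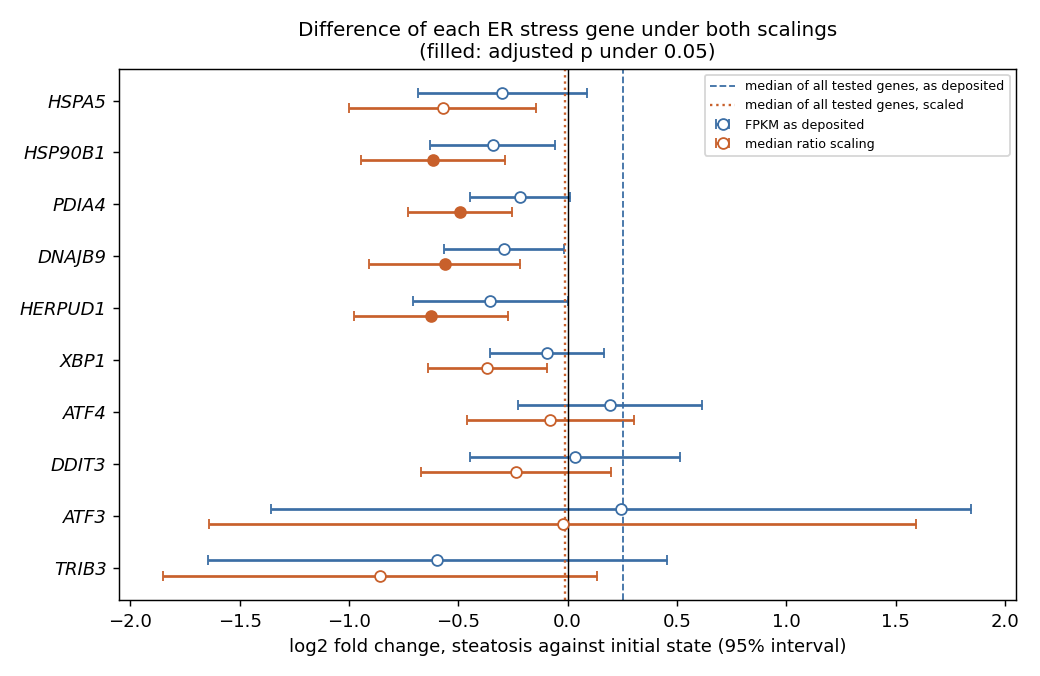
Log2 fold change (horizontal axis, steatosis against initial state) of the 10 genes with its 95% interval, from FPKM as deposited (blue) and after division by the median ratio (orange), with filled points for an adjusted p under 0.05. As deposited no point is filled, and after scaling HSP90B1, PDIA4, DNAJB9 and HERPUD1 are, all below 0.

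Which libraries entered the test also mattered. Without pool 1 of the initial state, which held the muscle and stomach transcripts, HSP90B1 (log2 fold change -0.46, adjusted p = 0.0128) and HERPUD1 (-0.47, adjusted p = 0.0413) fell with FPKM as deposited, where 2.13% of all genes fell. Leaving out any other library gave 0 calls among the 10 genes. On the median ratio scale the 4 falls became 5 without initial pool 1 (HSPA5, HSP90B1, XBP1, HERPUD1 and PDIA4), with 8.57% of all genes falling, and 5 without initial pool 3 (HSPA5 beside the 4), with 8.98%. They became 2 without steatosis pool 2 (HSP90B1 and PDIA4), with 5.88% of all genes falling, and 1 without steatosis pool 4 (PDIA4), with 4.77%. With the pool number as a block, 0 of the 10 genes were called as deposited, where 28.3% of all genes were, and 3 (HSP90B1, PDIA4 and HERPUD1) fell on the median ratio scale, where 8.37% did. In a scaling chosen after the data were seen, each pool was divided by the geometric mean of 22 other ER chaperones and oxidoreductases. HSP90B1 then had a log2 fold change of -0.36 (adjusted p = 0.0263) and was the only one of the 10 genes to fall, where 2.11% of all genes fell.

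The counts in related gene lists stand beside the 26.7% of all tested genes that rose and the 2.28% that fell as deposited, and beside 11.6% and 9.85% on the median ratio scale. Of the other ER chaperones and oxidoreductases, 22 genes in all, 2 rose and 2 fell as deposited, with a median log2 fold change of 0.05. SIL1, the nucleotide exchange factor of BiP, rose from 11.6 ± 0.68 to 18.4 ± 0.753 FPKM (SD, n = 4; log2 fold change 0.66, adjusted p = 0.000658, limma), and PDIA5, a disulfide isomerase, rose by 0.63 log2 units (adjusted p = 0.00561). P4HB, the most abundant disulfide isomerase gene named here, fell from 561.3 ± 60.7 to 438.8 ± 25.8 FPKM (-0.35, adjusted p = 0.0306), and ERP44, which retains proteins in the early secretory pathway, fell from 88.4 ± 8.21 to 69.6 ± 4.48 FPKM (-0.34, adjusted p = 0.0239). As deposited, the call of P4HB did not hold without initial pool 2, 3 or 4 or steatosis pool 1, 3 or 4 (-0.37 to -0.31), nor that of ERP44 without initial pool 2 or 3 or steatosis pool 1 or 4 (-0.33 to -0.30). On the median ratio scale 1 gene, SIL1, rose and 5 fell. These were HYOU1, DNAJB11, P4HB, CRELD2 and ERP44, of which HYOU1, DNAJB11 and CRELD2 are named after their values were seen. HYOU1, the large Hsp70 relative that works with BiP, had log2 fold changes of -0.30 (adjusted p = 0.0623) as deposited and -0.57 (adjusted p = 0.00441) on that scale.

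Among 22 genes of ERAD and of the translocon, 2 rose and 0 fell, with a median of 0.06. EDEM2, which trims mannose from misfolded glycoproteins, rose by 0.36 (adjusted p = 0.0145, limma). DERL3, a Derlin of the ER membrane, rose by 0.83 from 0.448 to 0.902 FPKM (adjusted p = 0.0413), a call lost in 20 of 24 alternatives. Among them were those without initial pool 1 (0.73 as deposited) and without steatosis pool 4 (0.60 as deposited), the pool with the highest value. On the median ratio scale 0 rose and 5 fell (SYVN1, DERL1, DERL2, SEC63 and SSR1, named after their values were seen).

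The sensors themselves showed no call. ERN1 measured 14.03, 7.76, 6.05 and 5.60 FPKM initially and 5.45, 6.75, 7.82 and 6.69 in steatosis (log2 fold change -0.23, adjusted p = 0.526, limma), with initial pool 1 far above the rest; without that pool the estimate was 0.05. EIF2AK3 differed by 0.27 (adjusted p = 0.208) and ATF6 by 0.05 (adjusted p = 0.768). Among the 15 sensors and transducers 4 rose and 0 fell, a share of higher genes equal to the 26.7% of all tested genes, with a median of 0.21 against 0.25. CREB3L2, a relative of ATF6, rose from 4.69, 4.33, 5.84 and 4.99 to 7.72, 9.48, 9.93 and 9.25 FPKM, with no overlap (log2 fold change 0.86, adjusted p = 0.00114). NFE2L2, the oxidative stress factor that PERK can phosphorylate, rose by 0.60 (adjusted p = 0.00975), CREB3L3, a liver ATF6 relative that acts on lipid genes, by 0.51 (adjusted p = 0.0292) and ATF6B by 0.46 (adjusted p = 0.0179). CREB3L3 did not pass without steatosis pool 2 (0.45) or 4 (0.46), nor ATF6B without steatosis pool 4 (0.43). On the median ratio scale only CREB3L2 of these 4 passed (0.59, adjusted p = 0.0154), and EIF2S1, the alpha subunit of eIF2, fell by 0.34 (adjusted p = 0.0486). EIF2S1 is named after its value was seen.

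**Figure D4:**
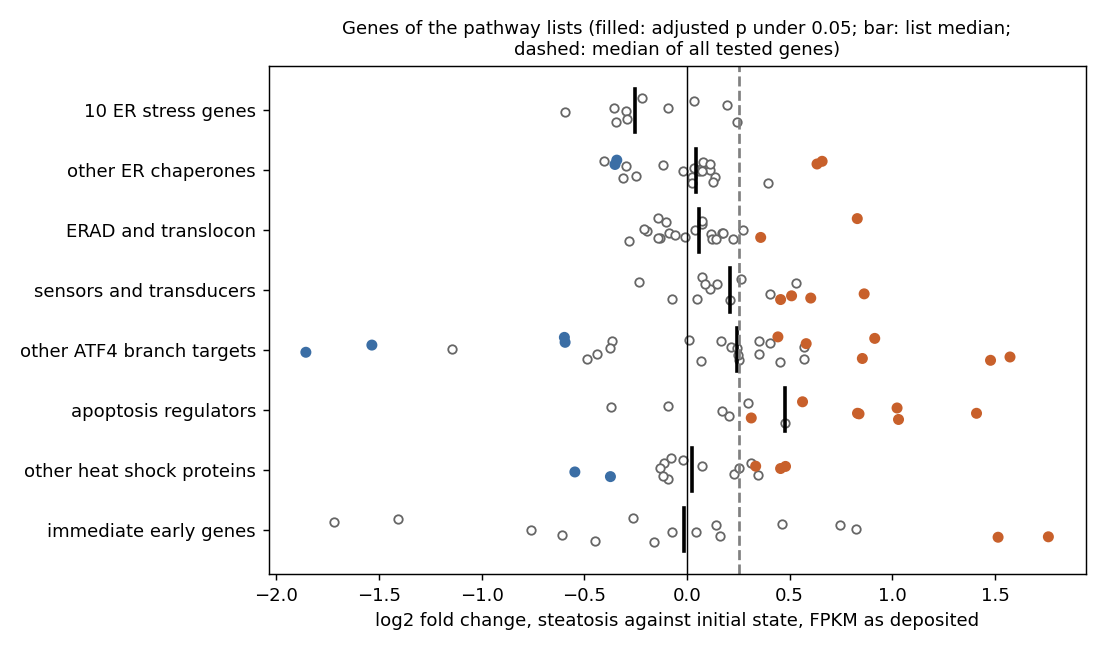
Log2 fold change (horizontal axis, FPKM as deposited) of the 10 ER stress genes and of the genes of 7 related lists, one point per gene, filled where the adjusted p was under 0.05, with the list median (bar) and the median of all tested genes (dashed, 0.25). The bar of the 10 genes lies at -0.25, and that of the apoptosis regulators at 0.48.

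Further targets of the PERK and ATF4 branch moved in both directions. Of 28 tested genes (29 in the table) 6 rose and 4 fell, with a median of 0.25, equal to that of all genes. ASNS, which makes asparagine and is a classical ATF4 target, rose from 1.41, 2.07, 1.95 and 1.12 to 4.68, 4.48, 6.98 and 3.09 FPKM with no overlap (log2 fold change 1.48, adjusted p = 0.00291). PSPH, the last enzyme of serine synthesis, rose by 1.57 (adjusted p = 0.0104) from a low initial mean of 0.715 FPKM. ALDH1L2, of mitochondrial folate metabolism, rose by 0.91 (adjusted p = 0.0103). The other genes that rose, named after their values were seen, were NUPR1 (0.85, adjusted p = 0.0181, limma), CARS1 (0.58, adjusted p = 0.0397) and WARS1 (0.44, adjusted p = 0.0205). None of these other genes passed on the median ratio scale. CTH, which makes cysteine from cystathionine, fell from 154.62, 59.15, 52.52 and 97.04 to 26.02, 29.30, 31.14 and 27.65 FPKM (-1.53, adjusted p = 0.00424). The other genes that fell, named after their values were seen, were DDIT4, an inhibitor of mTOR signalling that also responds to glucocorticoids and hypoxia (-1.86, adjusted p = 0.0265), the ATF4 relative ATF5 (-0.60, adjusted p = 0.0478) and SHMT2, of mitochondrial serine use (-0.59, adjusted p = 0.0272). On the median ratio scale 3 rose and 5 fell. ASNS, PSPH and ALDH1L2 rose and CTH, DDIT4, ATF5 and SHMT2 fell there too. PPP1R15B, named after its value was seen, fell on that scale only (-0.63, adjusted p = 0.00434, limma), with -0.37 (adjusted p = 0.0796) as deposited. The calls of ASNS and CTH held in all 25 alternatives of scaling, filter, pseudocount, block and left-out library, while as deposited those of DDIT4, ATF5 and SHMT2 were each lost without initial pool 2 or 3 or steatosis pool 1, 2 or 4, and also without initial pool 1 for DDIT4 (-1.46) and initial pool 4 for ATF5 (-0.63). The call of PSPH was lost in 4 of the 25 alternatives and that of ALDH1L2 in 5.

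Of 13 apoptosis regulators linked to ER stress, 7 rose and 0 fell, with a median of 0.48. They include genes that favour and genes that restrain cell death. BBC3 (PUMA), which CHOP can induce, rose from 0.578 ± 0.159 to 1.67 ± 0.234 FPKM (log2 fold change 1.41, adjusted p = 0.00125), and BAK1, a pore-forming protein, from 2.87 ± 0.232 to 5.95 ± 0.724 (1.02, adjusted p = 0.000449). BCL2 and BCL2L1, which restrain them, rose by 1.03 (adjusted p = 0.000753) and 0.83 (adjusted p = 0.00167). The count was 5 on the median ratio scale, these 4 and BAX (named after its value was seen), and the calls of these 4 held in the same 25 alternatives.

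Heat shock proteins outside the ER, 16 genes, had 3 rises and 2 falls with a median of 0.03. The cytosolic HSP90AB1 rose by 0.48 (adjusted p = 0.00826) and the mitochondrial protease subunit CLPP by 0.33 (adjusted p = 0.0239), while the mitochondrial chaperones HSPD1 and HSPA9 fell by 0.55 (adjusted p = 0.0144) and by 0.37 (adjusted p = 0.0246). HSP90AB1 and CLPP did not pass on the median ratio scale, with 0.21 and 0.06, whereas HSPD1 (-0.82) and HSPA9 (-0.65) did. On that scale 0 rose and 3 fell, the other being HSPA4, named after its value was seen (-0.35, adjusted p = 0.0327, limma). As deposited, CLPP did not pass with the pool number as a block (adjusted p = 0.0567) or without initial pool 1 or steatosis pool 1 or 3 (0.28 to 0.34), nor HSPA9 without initial pool 2 or steatosis pool 1, 2 or 4 (-0.38 to -0.30).

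The pools with high ATF3 were those with high levels of other early stress transcripts. The 17 immediate early genes, which in general respond within minutes to many stimuli, summed to 1116.96, 320.21, 291.88 and 172.60 FPKM in initial pools 1 to 4 and to 464.59, 264.25, 403.83 and 228.61 in those of steatosis. Within each group ATF3 put the pools in the same order as this sum, and 11 of the 17 were highest in initial pool 1, the pool with the muscle and stomach transcripts. Of 16 tested immediate early genes 2 rose, EGR2 by 1.76 (adjusted p = 0.00136, limma) and EGR3 by 1.52 (adjusted p = 0.00815), and 0 fell. The count that rose depended on the libraries. Leaving out one library gave 2 to 5 as deposited and 1 to 4 on the median ratio scale, with 0 that fell on either. EGR3 was near the floor, with 0.05 to 0.31 FPKM initially and 0.42 to 0.72 in steatosis. It met the filter on low values chiefly through its steatosis pools, and its call was lost in 4 of 24 alternatives. With the pool number as a block KLF6, named after its value was seen, was called higher as well (adjusted p = 0.018). KLF6 measured 31.05 FPKM in initial pool 1 and 9.46 to 14.56 in the other initial pools, against 20.33 to 31.66 in steatosis. As a description over the same 8 pools, and named after their values were seen, the deviations of ATF3 had a Pearson r of 0.984 with BTG2 and 0.982 with JUN of the immediate early list, and of 0.917 with SESN2 and 0.911 with PPP1R15A of the PERK and ATF4 list. These are the highest of each list, and each of these genes had its highest initial value in pool 1. The lowest r was 0.707 (FOSL2) in the immediate early list and -0.79 (NUPR1) in the PERK and ATF4 list. In the latter PSAT1 had -0.64, PSPH -0.62 and ASNS 0.20, and the r of TRIB3 was 0.06. Without initial pool 1 the log2 fold change of ATF3 was 0.99 and did not pass. The part of sampling in the ATF3 values was not tested.

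**Figure D5:**
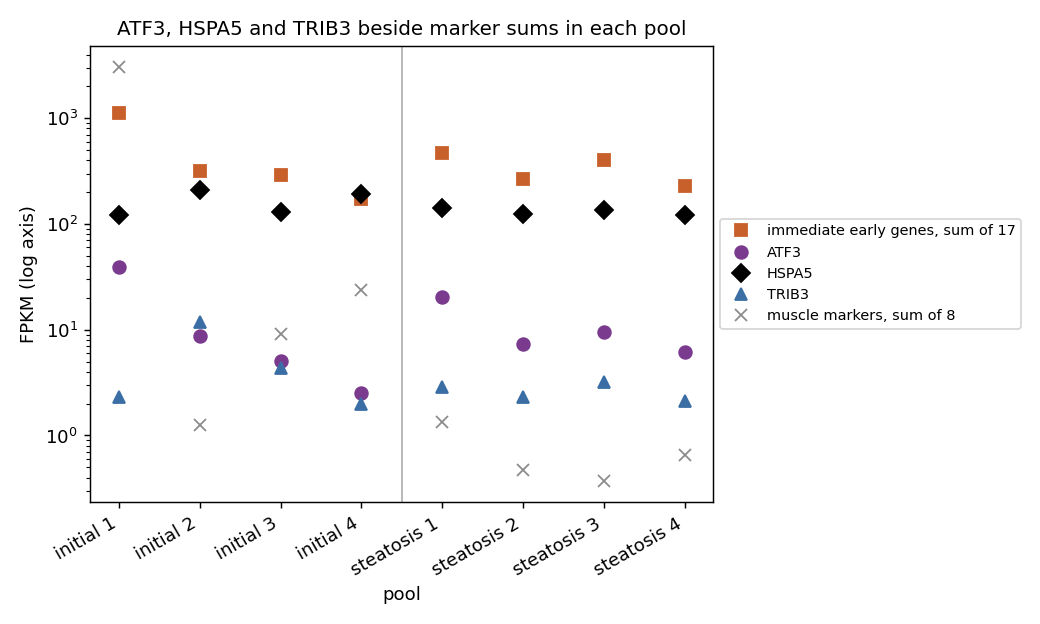
FPKM (log axis) of ATF3, HSPA5 and TRIB3 and the summed FPKM of 17 immediate early genes and 8 skeletal muscle genes in the 4 initial and 4 steatosis pools. ATF3 and the immediate early genes are highest in initial pool 1, where the muscle genes sum to 3074 FPKM, while TRIB3 is highest in initial pool 2, where they sum to 1.26.

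Markers of other cells moved between the groups as well. Of 12 macrophage genes 8 rose and 0 fell as deposited. Their sum as deposited was 956.7 to 1200 FPKM in the initial state and 1449 to 1665 in steatosis, without overlap. On the median ratio scale 6 rose and 1 fell, CD14, named after its value was seen (-0.46, adjusted p = 0.0199, limma). The sums were not taken on that scale. Of 9 tested genes of plasma and B cells, the former rich in ER, 3 fell and 6 were not called. Those that fell were JCHAIN and, named after their values were seen, CD79A and MS4A1. CD79A did not pass with the pool number as a block (adjusted p = 0.0598, limma). Of the 9 genes 7 lay below 0 and 2 above it, PRDM1 (0.55) and TNFRSF17 (0.22), also named after their values were seen. The sum over 10 was 24.4 to 60.4 FPKM initially and 19.4 to 25.8 in steatosis. JCHAIN alone measured 14.41 to 38.25 FPKM initially and 9.77 to 13.31 in steatosis. Pancreatic genes summed to at most 4.59 FPKM in any pool. Of 10 hepatocyte genes 1 rose and 1 fell as deposited, and 9 of 10 lay below the median of all genes. On the median ratio scale, on which 4 of the 10 ER stress genes fell, 0 hepatocyte genes rose and 3 fell. The median log2 fold change of the hepatocyte genes on that scale was -0.33. In bulk tissue a smaller share of a cell type and less RNA per cell cannot be told apart, and the part of these cells in the values of the ER stress genes was not tested.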

How the data were processed

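RNA of 8 pools was sequenced by the authors with paired-end reads of 100 bp. According to the study's methods and the submitters' processing notes, reads were filtered, mapped to Sscrofa11.1 with HISAT2 2.0.4, assembled with StringTie, and quantified with Bowtie2 2.2.5 and RSEM 1.2.12 after coding transcripts found by assembly were added. The values deposited by the authors are FPKM, with no stated scaling between libraries. In 4 further deposited tables, each comparing a single pair of pools, expression equalled the same FPKM apart from a floor of 0.01; their fold changes, p values and false discovery rates were not used, and their transcript lengths served to estimate depth. FPKM carries no counting error, so precision is the SD between pools of 2 pigs. Nothing says more about how animals were assigned to pools, so p values measure the spread between pools.

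A gene was tested when 4 or more of the 8 libraries held 0.3 FPKM or more, and was fitted on log2(FPKM + 0.1) with limma 3.58.1 in R 4.3.3 (mean-variance trend, group as the only term, two-sided, Benjamini-Hochberg adjustment over 13175 genes). The exact permutation test was two-sided on mean FPKM. Python 3.11.15 with pandas 2.3.3, numpy 2.4.6, scipy 1.17.1 and matplotlib 3.10.9 served for the rest, and the fit was tested on simulated data. Coordinates are those of RefSeq for Sscrofa11.1, matched by gene ID. Depth came from the spacing of values under 0.4 FPKM in genes of 400 to 1000 bp, of which 86.3% to 91.9% lay within 0.2 of a whole number of fragments.

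The 10 genes and the gene lists were chosen with earlier results of these data known. Named genes are the 10, ERN1, EIF2AK3 and ATF6, up to 4 called genes of lowest adjusted p per related list, markers of highest level and the 5 genes most like HSPA5, with others marked as named after their values were seen. The main fit and the exact test did not pair the libraries. Among the tests, pairing by pool number entered only the fits with the pool number as a block. It rests on the study's methods, by which both groups are the same animals. Which animals share a number is not given in the sources used here. Deviations from group means over 13175 genes correlated between pools of the same number at 0.16, 0.35, 0.32 and 0.25, all over 0.1. Pools of different number were not compared in this way, so these values cannot show that pools of the same number are more alike. Alternatives were other scalings, filters and a pseudocount of 1, the pool number as a block, each library left out and stricter limits of calling.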

Additional observations from a re-analysis of the deposited data

Results flagged for a closer look

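A single pool stood outside the other 3 of its group, by Dixon's limit for 4 samples, in 3 of 86 groups looked at, fewer than the 1 in 20 that chance gives. PDIA4 measured 117.65 FPKM in steatosis pool 2 and 103.29 to 105.46 in the other steatosis pools. DERL3 measured 1.46 FPKM in steatosis pool 4 and 0.66 to 0.78 in the others. HYOU1 measured 30.49 FPKM in initial pool 2, the pool in which 7 of the 10 ER stress genes were highest, and 23.00 to 24.17 in the others.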

How the results depend on the processing

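As deposited 0 of the 10 genes rose and 0 fell, and no alternative made any of them rise. The count that fell was 4 with median ratio scaling, 4 with upper quartile scaling, 3 with the replicate block and median ratio scaling, and 1 with scaling by other ER chaperones, chosen after seeing the data. Leaving out one library gave 0 to 2 as deposited and, in a setting also chosen after seeing the data, 1 to 5 on the median ratio scale. Exact tests under 0.05 numbered 0 as deposited, where 32.1% of all tested genes passed, and 5 on that scale, where 26.7% did. The replicate block alone, the common sum, both filters and the pseudocount of 1 gave 0. Over the 7 related lists 26 genes rose and 8 fell. These counts were 12 and 19 with median ratio scaling, 13 and 18 with upper quartile scaling, 14 and 18 with the replicate block and median ratio scaling, and 6 and 1 with the stricter limits of calling. Leaving out one library gave 19 to 27 that rose and 2 to 9 that fell, and on the median ratio scale 8 to 14 and 12 to 25. As deposited, 2 fell without initial pool 2, steatosis pool 1 or steatosis pool 4, 3 without initial pool 3 and 4 without steatosis pool 2.

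Estimates that changed sign had no call. With median ratio scaling, alone or with the block, they were -0.24 for DDIT3, -0.022 for ATF3, -0.079 for ATF4 and -0.22 for ATF6, and with upper quartile scaling -0.20 for DDIT3, -0.041 for ATF4 and -0.18 for ATF6. Leaving out one library, on either scale, gave ranges of -0.39 to 0.22 for DDIT3, -0.52 to 0.99 for ATF3, -0.18 to 0.29 for ATF4, -0.29 to 0.13 for ATF6, -0.059 to 0.37 for EIF2AK3 and -0.64 to 0.047 for ERN1. The cause was not tested.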
